A study of Homo sapiens with 14 samples.

Results

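The regions described here are HSF1 peaks of heat-treated, unsynchronised (cycling) K562 cells at which a peak was also called in heat-treated mitotic K562 cells. They were chosen from deposited peak lists as the HSF1 peaks of heat-treated cycling cells, on the autosomes and X, that share at least 1 bp with an HSF1 peak of heat-treated mitotic cells and none with a non-specific antibody (IgG) peak of heat-treated mitotic or heat-treated cycling cells. No fold or p threshold was added. The rule was met by 328 of 6390 peaks (6447 with the other chromosomes), and these 328 are called the kept peaks. All 12 peak lists of the series together hold 117699 peaks.

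HSF1 is the main transcriptional activator of the heat shock response. Upon heat it forms trimers that bind heat shock elements, repeats of a short inverted sequence, and switches on genes of chaperones and other proteins that protect the cell. Its relative HSF2 binds elements of the same kind and can join HSF1 in mixed trimers. In mitosis chromosomes are condensed, transcription is largely silent and many factors leave the DNA.

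K562 is a human erythroleukemia line, and all groups are of this one line, with no genetic change introduced by the study. Mitotic cells are labelled as arrested in mitosis and cycling cells as freely cycling. Heat-treated cells had 30 min at 42 °C and non-treated cells stayed at 37 °C. Each of the 4 conditions (mitotic with heat, cycling with heat, mitotic non-treated, cycling non-treated) was immunoprecipitated with an antibody to HSF1, with one to HSF2 and with non-specific IgG, and each state has 1 input library, labelled as heat-treated. Per the file headers, the control of the peak calls had 38337720 kept tags in all 6 mitotic lists and 34815679 in 5 cycling lists, but 36542527 in non-treated cycling IgG. Each group is 1 library from 10 pooled immunoprecipitations, so there is no replicate, no spread between replicates and no test of a condition. Values below are those of single libraries. Intervals are at 95% and cover counting error only, without the error between cultures or immunoprecipitations. Sequencing reads without molecular identifiers are not independent molecules.

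Levels are tags in a library's own peak per 1000000 tags that the peak caller kept in that library (CPM). The HSF1 libraries kept 7385467 tags of 10389953 in heat-treated mitotic cells and 16735990 of 16735990 in heat-treated cycling cells. The cap on tags at 1 position was 1 in the mitotic library and 2 in the cycling library. The IgG libraries of heat-treated cells kept 17981369 tags in mitotic cells and 14567365 in cycling cells, and their lists hold 41145 and 4298 peaks on the autosomes and X. Coordinates are hg19. Regions are given by position alone, since no gene annotation of that build was used here.

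Before IgG peaks were removed, 1039 of the 6390 cycling HSF1 peaks had a mitotic HSF1 peak. IgG peaks took out 711 of these. Of the 711, 261 had an IgG peak in mitotic cells alone, 65 in cycling cells alone and 385 in both. Of all cycling HSF1 peaks, 4805 were free of a heat-treated IgG peak in either state, and the 328 kept peaks are 6.83% of them. This share is the selection itself and nothing is read from it. The 328 peaks match 327 mitotic peaks, since 2 neighbouring kept peaks on the X chromosome share 1 mitotic peak, and 9 kept peaks have 2 mitotic peaks, of which the one with more tags was used.

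The kept peaks had a median of 1.49 CPM in mitotic cells, with a range of 1.22 to 93.2, against a median of 2.39 CPM in cycling cells, with a range of 0.777 to 32.3. In tags the medians were 11 in the mitotic list and 40 in the cycling list. The fold, as the authors deposited it, had a median of 2.46 in mitotic cells and 6.99 in cycling cells. The 2 libraries differ in depth, and whether their folds share a scale was not tested. Peak width had a median of 630 bp in mitotic cells and 938 bp in cycling cells. Many mitotic peaks stood on few tags: 121 of the 328 had 10 or fewer, and 75 had 9, which is the lowest number in the mitotic list.

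The ratio of mitotic to cycling CPM had a median of 0.711 (95% interval of the median over peaks, 0.647 to 0.784), with a range of 0.120 to 3.00. Taken peak by peak, the counting interval of the ratio lay below 1 at 102 kept peaks, spanned 1 at 216 and lay above 1 at 10. The ratio itself was above 1 at 96 kept peaks. The 9 tags of the lowest mitotic peak equal 1.22 CPM, while the lowest cycling peak of 13 tags equals 0.777 CPM. At 55 kept peaks the cycling level was under 1.22 CPM, so their ratio had to exceed 1, and the other 41 ratios above 1 are not set by that limit. Per kb of each library's own peak the median ratio was 1.08 (0.978 to 1.18), an interval that includes 1. With all tags in place of kept tags as the scale it was 0.505. That scale changes the mitotic library alone, which kept 7385467 of 10389953 tags, while the cycling library kept all of its tags. Whether the cycling value was the higher one at a typical kept peak thus depends on the scale. Names in the file headers carry bwa in the cycling HSF1 list and not in the mitotic one, so a difference in alignment and the cell state cannot be told apart in these ratios.

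Over the 328 kept peaks, levels in both states moved together, with a Pearson correlation of log2 CPM of 0.62 and a Spearman correlation of 0.53. These are descriptions across peaks that all come from the same 2 libraries and that had to pass the threshold in both.

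**Figure D1:**
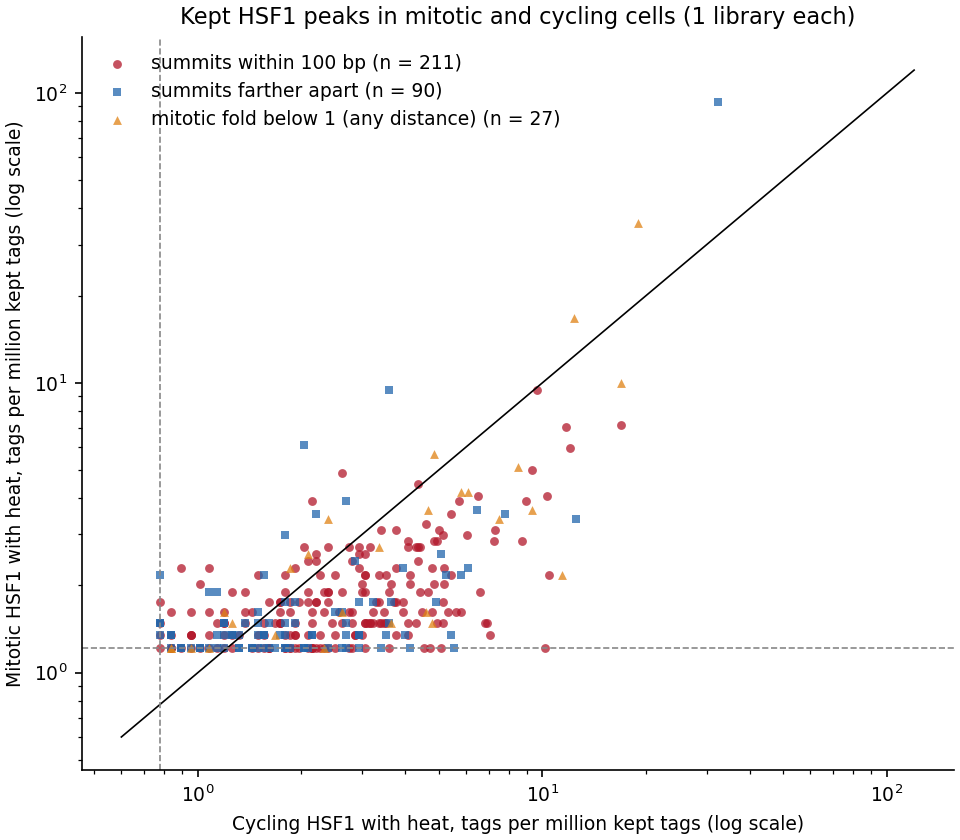
Each point is 1 of the 328 kept peaks, with its CPM in heat-treated mitotic cells (vertical, log scale) against its CPM in heat-treated cycling cells (horizontal, log scale); the solid line marks equal levels and the dashed lines the lowest mitotic (1.22 CPM) and lowest cycling (0.777 CPM) peak of the lists. Colour and shape separate peaks by summit distance and by a mitotic fold below 1. Many peaks lie along the lowest mitotic level, and 96 lie above the line of equal levels.

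Among the 10 kept peaks with the highest mitotic level were 2 kinds of region. Peaks with a mitotic fold of 3.92 to 15.1 made up the first kind, which holds 4 of the 10. At chr2:198364229-198365255 HSF1 had 70 tags or 9.48 CPM (interval 7.39 to 11.97) in mitotic cells, against 161 tags or 9.62 CPM (8.19 to 11.2) in cycling cells. Its fold was 15.1 in mitotic cells, the highest of all kept peaks, and 43.0 in cycling cells, and the summits were 42 bp apart. The intervals of the 2 states overlap at this region, with a ratio of 0.985 (0.733 to 1.31).

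At chr7:75923331-75924845 the level was 7.18 CPM in mitotic cells and 17.0 CPM in cycling cells, with summits 20 bp apart and a mitotic fold of 10.5. At chr16:89227208-89228470 it was 5.96 CPM in mitotic cells and 12.1 CPM in cycling cells, with summits 17 bp apart. At chr7:157937117-157938494 it was 7.04 CPM in mitotic cells and 11.7 CPM in cycling cells, with summits 4 bp apart. At these 3 regions the interval of the ratio lay below 1, at 0.423 (0.309 to 0.569), 0.494 (0.348 to 0.687) and 0.601 (0.434 to 0.820).

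Regions of high level with a mitotic fold below 2 made up the second kind, which holds 6 of the 10. The highest mitotic level of all, 93.2 CPM (688 tags), was at chr9:133774426-133785803, in a mitotic peak 19750 bp wide, against 32.3 CPM (541 tags) in a cycling peak 11378 bp wide. Its deposited fold was 1.12 in mitotic cells and 1.54 in cycling cells, and the summits lay 3900 bp apart. The neighbouring kept peak chr9:133802006-133809061 had 35.7 CPM in mitotic cells and 18.9 CPM in cycling cells, with folds of 0.95 in mitotic cells and 1.12 in cycling cells. Tag number and fold thus order the kept peaks differently: these 2 regions lead by tags and have deposited mitotic folds near 1.

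The other 4 of this kind had levels of 16.8 CPM in mitotic and 12.4 CPM in cycling cells at chr9:72652921-72653919, and 10.0 CPM in mitotic and 17.0 CPM in cycling cells at chr21:9682616-9687223. On chromosome 22 they had 9.48 CPM in mitotic and 3.59 CPM in cycling cells at chr22:20778121-20779829, and 6.09 CPM in mitotic and 2.03 CPM in cycling cells at chr22:19164161-19165285. Their mitotic folds were between 0.40 and 1.81. Of the 10 highest mitotic levels, 7 are also among the 10 highest cycling levels. The remaining 3 of the highest cycling levels had 3.39 CPM in mitotic and 12.5 CPM in cycling cells at chr19:5863588-5865998, 2.17 CPM in mitotic and 11.4 CPM in cycling cells at chr4:49544521-49549878, and 2.17 CPM in mitotic and 10.5 CPM in cycling cells at chr7:27773783-27774970.

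Ratios were ranked among the 55 kept peaks with at least 20 tags in each list. The 5 highest included the neighbouring regions on chromosome 9, at 2.88 and 1.89, and the 2 on chromosome 22, at 3.00 and 2.64. Per kb of each library's own peak these 4 ratios were 1.66 and 1.43 on chromosome 9, and 1.55 and 1.44 on chromosome 22, since their mitotic peaks were the wider ones. The fifth was chr14:102553133-102553905, with 36 tags or 4.87 CPM (3.41 to 6.75) in mitotic cells and 44 tags or 2.63 CPM (1.91 to 3.53) in cycling cells, a ratio of 1.85 (1.16 to 2.95), or 1.44 per kb. Its fold was 5.99 in mitotic cells and 13.2 in cycling cells, while the other 4 had mitotic folds below 2.

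The 5 lowest ratios ran from 0.271 to 0.393. The lowest, 0.271 (0.171 to 0.411), was at chr19:5863588-5865998, where the summits were 1054 bp apart. Next was chr12:125399635-125400639, with 2.84 CPM in mitotic cells and 8.72 CPM in cycling cells and summits 1 bp apart. The others were chr22:22033833-22038186 at 0.392, and chr16:89050113-89051597 and chr19:2398311-2399287, both at 0.393. The first of these 3 had a mitotic fold of 0.73 and a ratio of 1.31 per kb, on the other side of 1, and the other 2 had mitotic folds of 4.58 each.

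Mitotic and cycling summits of the kept peaks were a median of 58 bp apart (47 to 73), with a range of 0 to 9269 bp. They lay within 100 bp of each other at 221 of the 328, or 67.4%. The corresponding share was 47.4% among all 1039 cycling HSF1 peaks with a mitotic HSF1 peak (kept peaks included), before IgG peaks were removed. Between cycling HSF1 summits and summits of heat-treated mitotic IgG peaks it was 21.6% of 1340, with a median distance of 367 bp. The 100 bp limit was chosen after the distances were seen. At 26 kept peaks the summits were over 500 bp apart, so that the 2 calls share bases but not a summit.

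Distance went with the fold of the mitotic peak. In groups of mitotic fold, also set after the values were seen, the median distance was 251 bp below a fold of 1 (27 peaks), 128 bp from 1 to 2 (85 peaks), 47 bp from 2 to 3 (121 peaks), 42 bp from 3 to 5 (73 peaks) and 31 bp at 5 or more (22 peaks). Summits within 100 bp made up 37.0%, 43.5%, 73.6%, 87.7% and 95.5% of these groups. In the group of highest fold, 21 of 22 had their summits within 100 bp, and the exception, chr11:122932364-122933595, was at 104 bp.

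**Figure D2:**
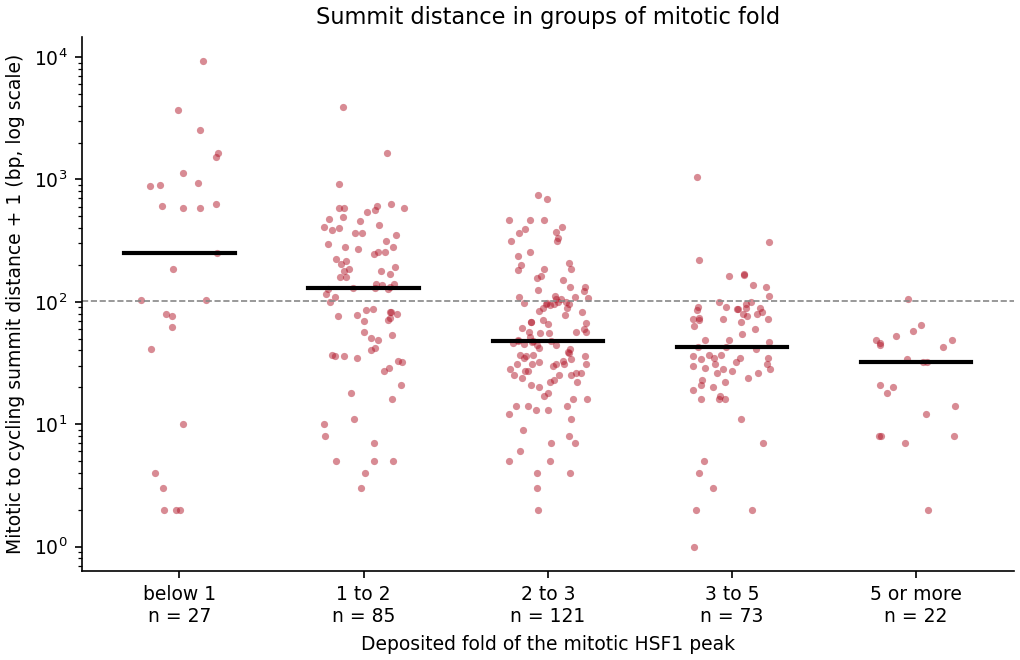
Each point is 1 kept peak, with the distance between its mitotic and cycling summits plus 1 bp (vertical, log scale) in groups of the deposited fold of its mitotic peak (horizontal, with the number of peaks); black bars are medians and the dashed line marks 100 bp. Median distance is 251 bp in the group of lowest fold and 31 bp in the group of highest fold.

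The 27 kept peaks with a mitotic fold below 1, a limit set after the values were seen, had features unlike those of the other 301. Their cycling fold had a median of 1.83, against 7.80 at the other 301, and their cycling width a median of 1444 bp, against 927 bp. Their median level was 2.30 CPM in mitotic cells and 3.64 CPM in cycling cells. An IgG peak of non-treated cells, which the selection did not use, overlapped 6 of the 27 (22.2%) in mitotic cells and 10 (37.0%) in cycling cells, against 2 (0.664%) in mitotic cells and 19 (6.31%) in cycling cells of the 301. Of the 12 kept peaks wider than 2000 bp, also a limit set after the values were seen, 10 had a mitotic fold below 1, and all 12 had summits more than 100 bp apart. For the 27 the name "kept in mitosis" rests on overlapping calls whose deposited mitotic fold was under 1. At chr9:133802006-133809061, which is among them, a mitotic fold of 0.95 stood beside a deposited score of 1222. All of these calls passed the p cutoff of the peak caller, so a fold under 1 is not read as a level below input. The part of the non-treated IgG signal in these calls was not tested.

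The 8 lists that the selection did not use show what else was called at these regions. The comparison is with all 4805 cycling HSF1 peaks free of heat-treated IgG peaks, which include the kept ones. A mitotic HSF2 peak of heat-treated cells overlapped 88 kept peaks (26.8%, interval 22.3 to 31.9), against 4.95% of the 4805. A cycling HSF2 peak of heat-treated cells overlapped 227 kept peaks (69.2%, 64.0 to 74.0), against 30.3% of the 4805. Both shares lay above the background, and the intervals cover the counting of peaks in these libraries alone. Of the 4805, 3199 had a cycling level under 1.22 CPM, the lowest level in the mitotic HSF1 list, against 55 of the 328 kept peaks. The background thus holds a larger part of low peaks, and shares at like cycling levels are given below for some lists.

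Each list of non-treated cells overlapped fewer kept peaks than either HSF2 list of heat-treated cells. An HSF1 peak overlapped 23 kept peaks in mitotic cells (7.01%, against 1.39%) and 35 in cycling cells (10.7%, against 3.23%). An HSF2 peak overlapped 52 in mitotic cells (15.9%, against 4.52%) and 23 in cycling cells (7.01%, against 1.02%). IgG peaks of non-treated cells overlapped 8 in mitotic cells (2.44%, against 0.499%) and 29 in cycling cells (8.84%, against 3.66%). The share at kept peaks was above the background in every one of the 8 lists, the 2 IgG lists included, before cycling level was taken into account. These lists differ in size on the autosomes and X, from 866 peaks in non-treated cycling HSF2 to 19809 in non-treated mitotic HSF2. The heat-treated HSF2 lists hold 8254 peaks in mitotic and 4289 in cycling cells. Each share is therefore read against the background of its own list and not against other lists. Of the 328, 236 had no HSF1 or HSF2 peak in any of the 4 non-treated lists. The matching share over the 4805 was not computed, so this count is not read as a trait of the kept peaks.

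**Figure D3:**
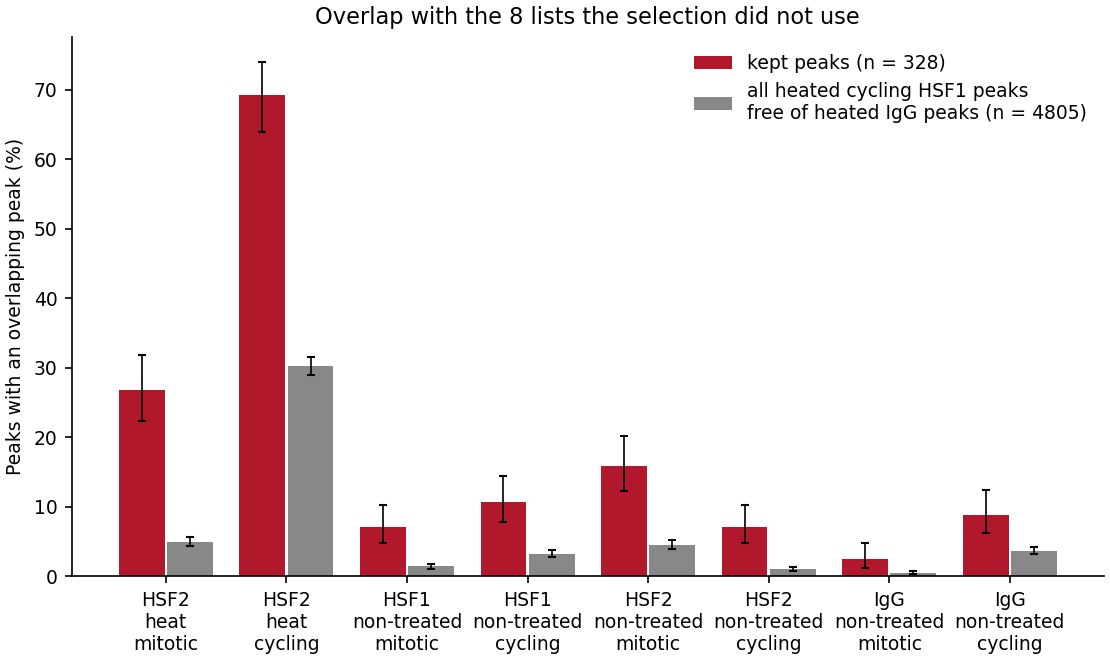
Bars give the percent of regions that overlap a peak of each of the 8 lists not used for the selection, for the 328 kept peaks (red) and for all 4805 heat-treated cycling HSF1 peaks free of heat-treated IgG peaks (grey), with 95% Wilson intervals for counting error. The red bars are higher than the grey in all 8 lists. For heat-treated HSF2 they stand at 26.8% in mitotic and 69.2% in cycling cells. The lists differ in size and depth, so heights are not compared between lists.

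HSF2 was called in both states at 77 kept peaks, in mitotic cells alone at 11, in cycling cells alone at 150 and in neither at 90. These joint counts were not made over the 4805, so they describe the kept peaks alone. At the 77, HSF2 in mitotic cells stood at a median of 0.314 (0.278 to 0.350) of its CPM in cycling cells, and the ratio was above 1 at 2 of them. Header names carry bwa in the cycling HSF2 list and not in the mitotic one, so alignment and cell state cannot be told apart here. The HSF2 ratio was not computed per kb of peak or with all tags. It is not compared with that of HSF1, whose lowest mitotic peak stood at 1.22 CPM. The mitotic HSF2 library kept 28299989 tags and the cycling one 19476014, and the lowest HSF2 level at a kept peak was 0.601 CPM in mitotic and 0.719 CPM in cycling cells. The cycling HSF2 summit was a median of 26 bp from the cycling HSF1 summit at the 227 peaks that had one, and the mitotic HSF2 summit was a median of 68 bp from it at 88. Where called, HSF2 had a median of 0.936 CPM in mitotic cells and 1.95 CPM in cycling cells.

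The share with HSF2 went with the mitotic fold of HSF1. From the group of lowest to that of highest mitotic fold, a cycling HSF2 peak was present at 22.2%, 52.9%, 75.2%, 87.7% and 95.5% of kept peaks, and a mitotic HSF2 peak at 7.41%, 21.2%, 16.5%, 43.8% and 72.7%. The order of the groups is the order of the shares for cycling HSF2 but not for mitotic HSF2. Over the 4805 these shares were 30.3% for cycling and 4.95% for mitotic HSF2. The groups also differed in cycling HSF1 level, with medians of 3.64, 1.91, 1.91, 3.29 and 5.20 CPM in the same order. They were not compared at like cycling levels, so fold and cycling level are not told apart here. Of the 22 kept peaks with a mitotic fold of 5 or more, 16 had HSF2 in both states, and 14 had no HSF1 or HSF2 peak in non-treated cells. Neither count has a matching share over all 4805 IgG-free cycling HSF1 peaks, so nothing is read from them.

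Kept peaks had more cycling tags than the others, with a median of 2.39 CPM for the kept peaks and 0.956 CPM for the 4477 not kept, so both were also set side by side at like cycling levels, in groups chosen after the values were seen. The share kept, which the selection itself sets, was 1.22% below 1 CPM, 3.74% from 1 to 1.5, 11.4% from 1.5 to 2, 21.1% from 2 to 3, 39.9% from 3 to 5 and 57.5% at 5 CPM or more. The share was larger in each higher group. Of kept peaks, 42.5% from 3 to 5 CPM had a mitotic HSF2 peak, against 8.18% of the others at that level. At 5 CPM or more these shares were 50.0% of 50 kept peaks and 8.11% of 37 others. Those others were unlike the kept peaks in fold, with a median of 2.33 against 17.9, and were wider. From 2 to 3 CPM they were 22.7% of 75 kept peaks and 9.96% of 281 others. The share with mitotic HSF2 was higher at kept peaks in all 6 groups, with overlapping intervals below 1 CPM (6.90% of kept and 1.53% of other peaks) and from 1.5 to 2 CPM (6 of 50 kept and 22 of 390 other peaks).

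Cycling HSF2 lay closer together at like levels. It was present at 33.3% of kept and 33.3% of other peaks from 1 to 1.5 CPM, at 66.0% and 61.3% from 1.5 to 2, at 88.0% and 80.4% from 2 to 3, and at 84.9% and 82.7% from 3 to 5, with overlapping intervals in these 4 groups. Below 1 CPM it was present at 24.1% of 29 kept peaks and 9.28% of 2348 others. At 5 CPM or more it was present at 84.0% of kept peaks and 45.9% of the others, but there the others had a median fold of 2.33 and a median width of 2757 bp, against 17.9 and 1224 bp for the kept peaks.

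Non-treated cycling HSF1 also lay closer together at like levels. It was present at 3.45% of kept and 1.19% of other peaks below 1 CPM, at 9.80% and 2.82% from 1 to 1.5, at 4.00% and 6.92% from 1.5 to 2, and at 12.3% and 7.27% from 3 to 5. From 2 to 3 CPM it was present at 9 of 75 kept and 16 of 281 other peaks, and at 5 CPM or more at 9 of 50 kept and 4 of 37 other peaks. The intervals overlapped in 5 of the 6 groups, all but that from 1 to 1.5 CPM, and from 1.5 to 2 CPM the share was lower at kept peaks. The other 5 lists were not compared at like levels.

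**Figure D4:**
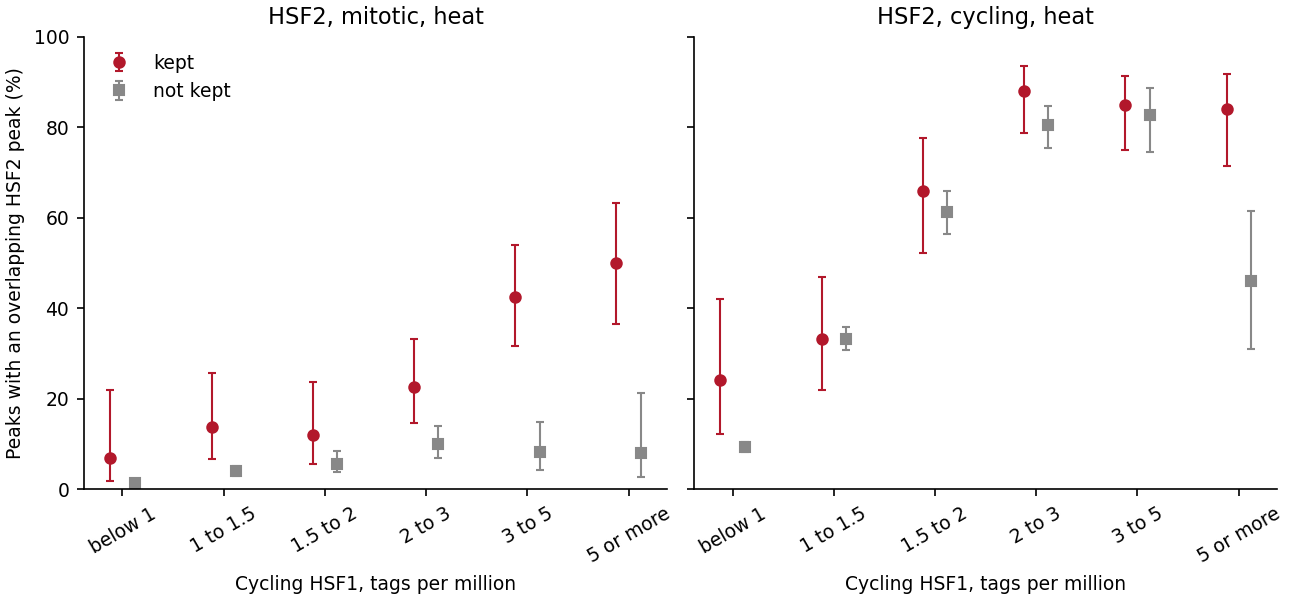
Points give the percent of peaks with an overlapping HSF2 peak of heat-treated mitotic cells (left) and heat-treated cycling cells (right), in 6 groups of cycling HSF1 CPM, for kept peaks (red circles) and peaks not kept (grey squares), with 95% Wilson intervals for counting error. From 3 to 5 CPM mitotic HSF2 is at 42.5% of kept and 8.18% of other peaks, while cycling HSF2 is at 84.9% and 82.7%. At 5 CPM or more the peaks not kept have a median fold of 2.33, against 17.9 for the kept peaks.

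At some kept peaks an HSF1 peak was also called without heat. At the 23 with a non-treated mitotic HSF1 peak, the heat-treated mitotic level was higher at 14. At the 35 with a non-treated cycling HSF1 peak, the heat-treated cycling level was higher at 24. These counts were not made over the 4805 IgG-free cycling HSF1 peaks. The selection also required a peak in both heat-treated HSF1 lists, so nothing about heat is read from these counts. These non-treated peaks had a median deposited fold of 0.83 in mitotic and 2.17 in cycling cells. Their summits lay a median of 233 bp (mitotic) and 96 bp (cycling) from the heat-treated cycling HSF1 summit. Non-treated HSF1 was called in mitotic cells at 13 of the 27 kept peaks of mitotic fold below 1 (48.1%), and in cycling cells also at 13. Among the 301 others the numbers were 10 (3.32%) in mitotic and 22 (7.31%) in cycling cells.

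An HSF peak in all 8 HSF lists was found at 2 kept peaks. At chr2:198364229-198365255, described above, HSF1 had 9.48 CPM in heat-treated mitotic and 9.62 CPM in heat-treated cycling cells, against 1.95 CPM in non-treated mitotic and 1.38 CPM in non-treated cycling cells. HSF2 there had 1.98 CPM in heat-treated mitotic and 7.19 CPM in heat-treated cycling cells, against 1.89 CPM in non-treated mitotic and 2.23 CPM in non-treated cycling cells. Heat-treated levels exceeded non-treated ones for HSF1 in both states, and for HSF2 mainly in cycling cells.

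At chr11:122932364-122933595, HSF1 had 3.52 CPM in heat-treated mitotic and 7.77 CPM in heat-treated cycling cells, against 2.43 CPM in non-treated mitotic and 0.969 CPM in non-treated cycling cells. HSF2 had 2.40 CPM in heat-treated mitotic and 5.75 CPM in heat-treated cycling cells, against 2.57 CPM in non-treated mitotic and 2.69 CPM in non-treated cycling cells. In mitotic cells the heat-treated and non-treated values lay close together for HSF2 at both regions.

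By the naming rule, 18 kept peaks had HSF1 peaks in both non-treated states or HSF peaks in at least 3 of the 4 non-treated lists. Some had HSF1 levels without heat near or above those with heat. At chr9:72652921-72653919 mitotic HSF1 had 16.8 CPM with heat and 16.5 CPM without, cycling HSF1 had 12.4 CPM with heat and 13.3 CPM without, and IgG of non-treated cells had 19.8 CPM in mitotic and 16.9 CPM in cycling cells. At chr19:27966728-27967702 mitotic HSF1 had 3.39 CPM with heat and 5.03 CPM without, and IgG of non-treated mitotic cells had 6.78 CPM. At chr22:22033833-22038186 mitotic HSF1 had 3.66 CPM with heat and 4.70 CPM without, while mitotic HSF2 with heat had 37.5 CPM. At these 3 regions heat-treated HSF1 was below non-treated IgG in each state in which IgG was called, with 9.32 CPM for cycling HSF1 and 23.5 CPM for cycling IgG at the third.

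Others were higher with heat in mitotic cells alone. At chr9:133774426-133785803 mitotic HSF1 had 93.2 CPM with heat and 25.6 CPM without, while cycling HSF1 had 32.3 CPM with heat and 33.6 CPM without. At chr22:20778121-20779829 mitotic HSF1 had 9.48 CPM with heat and 5.35 CPM without, and cycling HSF1 had 3.59 CPM with heat and 8.03 CPM without. At chr22:19164161-19165285 mitotic HSF1 had 6.09 CPM with heat and 1.46 CPM without, and cycling HSF1 had 2.03 CPM with heat and 6.51 CPM without. All 3 had mitotic folds below 2, and non-treated IgG had 7.26 CPM in mitotic cells at the first and 4.34 CPM in cycling cells at the second.

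By contrast, chr1:155214197-155215084 had a narrow peak with a mitotic fold of 4.14 and no IgG or HSF2 peak in any list. HSF1 there had 1.90 CPM in heat-treated mitotic and 4.66 CPM in heat-treated cycling cells, against 1.95 CPM in non-treated mitotic and 2.22 CPM in non-treated cycling cells. The heat-treated level was higher in cycling cells, and in mitotic cells the values with and without heat stood on 14 and 12 tags. At the 7 of the 18 not described singly (chr1:142728388-142730616, chr6:167846075-167847518, chr8:142212925-142213762, chr16:32110758-32111861, chr19:44919059-44920696, chr21:11084136-11088048 and chr22:18755480-18756118), mitotic HSF1 had 1.22 to 5.69 CPM with heat and 1.30 to 5.03 CPM without.

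Kept peaks were found on all 22 autosomes and on X. Of all IgG-free cycling HSF1 peaks 6.83% were kept, and the share by chromosome was highest on chromosome 14, at 14.5% (7.56 to 26.2, 8 kept peaks), followed by 13.7% on chromosome 22, 12.9% on chromosome 21 and 12.2% (8.79 to 16.7, 32 kept peaks) on chromosome 19. Chromosome 1 had the most kept peaks, 41, or 6.12%. The lowest share, 2.53% (0.989 to 6.33), was on chromosome 8, with 4 kept peaks of 158. With a gap of at most 100000 bp, a limit chosen after the positions were seen, 41 kept peaks fell into 19 clusters, 16 of 2 and 3 of 3 peaks. The clusters of 3 were at chr7:75831055-76003505, chr11:65187061-65262067 and chr16:194522-224946, with median mitotic folds of 3.52, 3.50 and 3.87, and 2, 3 and 3 of their peaks had a cycling HSF2 peak. On chromosome 22, 3 clusters of 2 between positions 18755480 and 22130153 had median mitotic folds of 1.30, 0.875 and 0.69 and no cycling HSF2 peak. On chromosome 12, the pair within chr12:125398732-125400639 overlaps the same cycling HSF2 peak of 144 tags, which is counted once for each.

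Near the edge of the rule, the 3 smallest overlaps that let a peak in were 17 bp at chrX:9381533-9382141, 19 bp at chr4:9242377-9243206 and 29 bp at chr6:31620398-31621611, with 9, 10 and 10 mitotic tags. Just outside, chr1:181478139-181478741, chr19:16493290-16493937 and chr10:43733826-43734512 missed a mitotic HSF1 peak by 51, 55 and 75 bp, with 11, 9 and 11 tags in that mitotic peak. IgG overlaps of 5, 7 and 11 bp took out chr7:101189671-101190649, chr1:23345646-23346177 and chr2:73114825-73115603, which had 1.79, 1.25 and 2.69 CPM in cycling cells. At the overlap edge, mitotic tag numbers were thus similar on either side, and all were near 9, the lowest in the mitotic list. Peaks taken out by IgG are given by cycling level only and are not part of that comparison.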

How the data were processed

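ChIP-seq peak lists of 12 antibody libraries from K562 cells were used; 2 input libraries have no peak list. Per the submitters' processing notes, Bowtie, MACS 1.4 and hg19 were used. Per the file headers, peaks were called separately in each library by MACS 1.4.1 with a p cutoff of 1e-05, and names in the headers carry bwa in 5 of the 6 cycling lists and in no mitotic list, so alignment may differ between the states. The tags column is a count of tags per peak, per the file headers. The deposited score is minus 10 times log10 of the p-value. The deposited fold is an enrichment value from the peak caller. It cannot be read as a peak's tags over those expected from input, since calls that passed the p cutoff include folds below 1. The deposited FDR is a percent and was not used to choose peaks.

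CPM (tags per 1000000 kept tags) was computed from tag counts and the kept tags in the headers. Single peaks have exact Poisson intervals, ratios exact Clopper-Pearson intervals, shares Wilson intervals and medians order-statistic intervals. No test was run, since each group is 1 library. Regions were named by rule: the 10 highest mitotic and 10 highest cycling levels, the 5 highest and 5 lowest ratios with at least 20 tags in each list, peaks in both non-treated HSF1 lists or at least 3 non-treated HSF lists, and 3 at each edge of the selection, 31 kept peaks in all. The members, groups and lists were chosen with earlier results of these data known. Alternatives covered overlap, IgG removal, score, fold and scale. Overlaps were tested on simulated data and against bedtools 2.31.1. Values were computed in Python 3.11.15 (scipy 1.17.1, pandas 2.3.3, numpy 2.4.6) and drawn with matplotlib 3.10.9. Gene annotation and DNA sequence were not used here, because the tables at hand are of GRCh38.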

Additional observations from a re-analysis of the deposited data

How the results depend on the processing

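No paired analysis was possible because each group is 1 library and no test was run. Of 50 values under alternatives, 23 stayed within the interval or 1.5 times the count, 26 moved and 1 changed side of 1: the median mitotic to cycling ratio was 1.08 per kb of peak (0.978 to 1.18, which includes 1); with total tags it was 0.505. Without IgG removal there were 1039 peaks, with a median ratio of 0.890, a median summit distance of 116 bp, cycling HSF2 at 60.0%, mitotic HSF2 at 45.1% and non-treated cycling HSF1 at 44.0%. With a cycling fold of at least 10 there were 115 peaks, with 0.493, 34 bp, 97.4%, 50.4% and 5.22% in the same order. With a mitotic fold of at least 2 there were 216, with a distance of 43 bp, cycling HSF2 at 81.5% and non-treated HSF1 at 3.70%. A score of at least 100 gave a ratio of 0.636, cycling HSF2 at 82.6% and non-treated HSF1 at 5.81%. Summits within 250 bp gave 43 bp, 74.5% and 6.91% for distance, cycling HSF2 and non-treated HSF1. Overlap of 50% of both peaks gave a distance of 46 bp. Non-treated HSF1 was at 6.78% with all 4 IgG lists removed and at 7.31% without mitotic folds below 1, an alternative chosen after seeing the data. The cause of these shifts was not tested, beyond the smaller or larger number of peaks each alternative leaves. The heat-treated mitotic HSF1 list kept 7385467 tags and its lowest peak has 9, so mitotic levels under that number were not detectable in it. At 5 CPM or more in cycling cells, 37 peaks had no mitotic peak. Their median cycling fold was 2.33 and their median width 2757 bp, against 17.9 and 1224 bp for the kept peaks at that level. The part of depth in the absence of mitotic calls was not tested.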
